A study of Mus musculus with 12 samples.

Results

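Rn7sk (the 7SK RNA), Rpph1 (the RNA of RNase P) and Rmrp (the RNA of RNase MRP) were followed through polysome gradients of mouse liver. They are 3 of the 27179 gene IDs counted in each library, and all 3 passed the filter on low counts. They were chosen by name as structured RNAs of RNA polymerase III, and selected on their measured counts, library shares and heavy-over-light ratios in all 12 libraries. Those values are therefore given as a description, with no test. Livers came from 6 male C57BL/6 mice, and each gave a heavy and a light pool of gradient fractions, sequenced as separate libraries. The groups were wild-type mice fed chow (chow, 3 animals), wild-type mice fed a ketogenic diet (keto, 2 animals) and 1 chow-fed mouse homozygous for eIF4E S209A (S209A). The sample titles call chow 1 and chow 2 "chow", but chow 3 and S209A "fed". The protocol gives 24 h on the diet, while the samples carry a time label of 0 h. Fractions 2-7 and 8-13 were pooled, and the labels do not say which range is the heavy pool. The S209A allele removes the serine of the cap-binding protein eIF4E that MNK kinases phosphorylate. With 1 animal, that group has no replicate check.

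All 3 RNAs are transcribed by RNA polymerase III from promoters that lie outside the transcribed stretch, and none of them encodes a protein. 7SK RNA is the scaffold of a nuclear particle in which Hexim proteins hold the kinase P-TEFb inactive, which restrains elongation by RNA polymerase II. RNase P RNA is the catalytic part of the nuclear enzyme that cuts the 5′ leader from tRNA precursors. RNase MRP RNA is its relative in the nucleolus, shares most of its proteins and cuts the ribosomal RNA precursor. In a polysome gradient heavy fractions hold mRNAs with many ribosomes, and any other particle of like size sediments with them.

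In RefSeq's annotation of GRCm38.p6, Rn7sk (ID 19817, 332 bases) lies at chr9:78175302-78175633. Rpph1 (ID 85029, 325 bases) lies at chr14:50807447-50807771, and Rmrp (ID 19782, 275 bases) at chr4:43492785-43493059. The edge of Rpph1 at higher coordinates lies 125 bases from the start of Parp2, a poly(ADP-ribose) polymerase gene. That of Rmrp lies 280 bases from the start of Ccdc107, a coiled-coil protein gene. The strand of the RNAs was not used here, so neither edge is named as a 5′ or 3′ end. The next 2 sequences are shown because they hold the whole stretch between Rpph1 and Parp2 and most of that between Rmrp and Ccdc107, beside which the RNAs are counted. Both are RefSeq promoter windows of the neighbours (GRCm38.p6, plus strand), printed up to the base before the neighbour's annotated start. In the Rpph1 line, chr14:50807666-50807896, capitals mark the 106 bases inside the annotated Rpph1 gene. In the Rmrp line, chr4:43493115-43493339, capitals mark matches to ATTTGCAT, the octamer of RNA polymerase III and snRNA promoters, or to the TATA letters TATAAA, on either strand.

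Rpph1 to Parp2: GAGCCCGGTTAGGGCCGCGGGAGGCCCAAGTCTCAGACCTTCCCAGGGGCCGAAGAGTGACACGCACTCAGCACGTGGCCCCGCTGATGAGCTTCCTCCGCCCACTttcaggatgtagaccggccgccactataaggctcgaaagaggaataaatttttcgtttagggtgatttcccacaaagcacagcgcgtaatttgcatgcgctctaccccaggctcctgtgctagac
Rmrp to Ccdc107: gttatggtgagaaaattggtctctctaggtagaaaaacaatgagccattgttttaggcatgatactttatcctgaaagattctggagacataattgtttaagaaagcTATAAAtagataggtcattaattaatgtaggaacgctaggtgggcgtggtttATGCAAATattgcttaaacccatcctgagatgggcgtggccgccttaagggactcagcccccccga

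The octamer ATTTGCAT was found in both, at chr14:50807860-50807867, 89 bases beyond the annotated edge of Rpph1, and on the other strand at chr4:43493274-43493281, 215 bases beyond that of Rmrp. Of all 32851 promoter windows of 300 bases, 1.74% held it on either strand. TATAAA was found beside Rmrp at chr4:43493222-43493227, and 13.6% of all windows held it. TATATA (5.67% of windows), CCCANNATG (5.01%) and ACCNTNNNT (34.7%) had no match on either strand in these 2 windows. The window of the noncoding C920006O11Rik, beside Rn7sk and not printed, held no octamer. It held TATAAA on the other strand at chr9:78175768-78175773 and ACCNTNNNT at chr9:78175699-78175707. A match is a description of the letters only.

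Library totals ran from 3341046 to 13263355 counts. Mitochondrial rRNA took 12.1% to 16.7% of the counts in 6 libraries (both pools of chow 3 and S209A, the heavy pools of chow 1 and chow 2). It took 37.6% to 74.2% in the other 6 (the light pools of chow 1 and chow 2, both pools of keto 1 and keto 2). Per the file headers, chow 1 and chow 2 were aligned with Bowtie2, chow 3 and S209A with HISAT2, and the keto headers name no aligner, so diet and processing cannot be told apart. The summed counts of 5 hepatocyte markers (Alb, Apoa1, Ttr, Apob, Cps1) were 36160 to 61554 per 1000000 nuclear protein-coding counts (PC-CPM) in the 12 libraries, so the labelled tissue had its defining markers. Lymphocyte and neutrophil markers (3 each) summed to at most 8.70 PC-CPM, with 1 neutrophil marker at 0 everywhere. The 4 measured erythroid markers summed to 302 to 743 PC-CPM in the keto light libraries and to 25.9 to 187 elsewhere.

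Rpph1 was the most abundant of the 3, with 127778 counts over the 12 libraries, the 11th largest total of all IDs. Rn7sk had 33759 (51st) and Rmrp 15182 (131st). Together they made up 0.0585% of the library in chow 3 heavy and 0.451% in keto 2 heavy, the extremes of the 12. Levels below are in PC-CPM, since ribosomal and mitochondrial RNA moved the totals. Protein-coding counts were 15.9% to 29.7% of the chow heavy libraries, but 5.60% and 6.01% of the keto heavy ones. For how many of all genes the diets do not overlap was not counted. Overlap between the diets is therefore given below as a description only. In bulk RNA, fewer cells of a type and less RNA per cell cannot be told apart.

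Rn7sk, the 7SK scaffold, stood at 561, 540 and 343 PC-CPM in the heavy pools of chow 1, 2 and 3. In their light pools it stood at 6195, 5050 and 455. The keto animals had 6127 and 13318 in the heavy and 7823 and 16203 in the light pools, and S209A had 385 and 273. Both keto pools lay above every chow pool of the same kind, while chow 3 and S209A were low in both pools. The chow mean was 481 ± 121 (SD, n = 3) in heavy and 3900 ± 3038 in light pools, against 9723 ± 5085 (SD, n = 2) and 12013 ± 5925 in keto. The lowest count behind these values, 347 in S209A light, was 0.0104% of that library (95% exact Clopper-Pearson interval 0.00932% to 0.0115%). Such intervals cover counting error only.

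Rpph1, the RNase P RNA, stood at 2553, 1658 and 1334 PC-CPM in the chow heavy pools and at 28962, 8712 and 1538 in the chow light pools. In keto it reached 30386 and 58370 in heavy and 25201 and 52120 in light pools. S209A had 2284 and 2143. The heavy pools of the 2 diets did not overlap. The light pools did, since chow 1 exceeded keto 1. The chow means were 1848 ± 632 (SD, n = 3) and 13071 ± 14222, and the keto means 44378 ± 19788 (SD, n = 2) and 38660 ± 19034, heavy before light. In keto 2 heavy, Rpph1 was the 6th most counted ID, at 0.351% of all counts (exact interval 0.347% to 0.355%). In chow 2 heavy it ranked 115th, at 0.0367%.

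Rmrp, the RNase MRP RNA, stood at 691, 789 and 294 PC-CPM in the chow heavy pools and at 4659, 2757 and 423 in the chow light pools. The keto animals had 2684 and 3366 in heavy and 2483 and 3178 in light pools, and S209A had 369 and 391. Heavy pools of the diets did not overlap on this scale, and light pools did. The chow means were 591 ± 262 (SD, n = 3) and 2613 ± 2122, against 3025 ± 482 (SD, n = 2) and 2830 ± 491 in keto. As a share of all counts the heavy pools overlapped, with 0.00872% to 0.0175% in chow and 0.0150% and 0.0202% in keto. Rmrp was the only one of the 3 for which the heavy pools overlapped on either scale.

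The order of the group means, from low to high, was S209A light, S209A heavy, chow heavy, chow light, keto heavy and keto light for Rn7sk. For Rpph1 it was chow heavy, S209A light, S209A heavy, chow light, keto light and keto heavy, and for Rmrp S209A heavy, S209A light, chow heavy, chow light, keto light and keto heavy. Neighbours in this order overlapped from chow light upwards for all 3 RNAs. Chow heavy and chow light, neighbours for Rn7sk and Rmrp, overlapped too. They held 343 to 561 and 455 to 6195 PC-CPM for Rn7sk, and 294 to 789 and 423 to 4659 for Rmrp. The S209A values lay within the range of the chow heavy pools, except Rn7sk in S209A light, which lay below it.

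**Figure D1:**
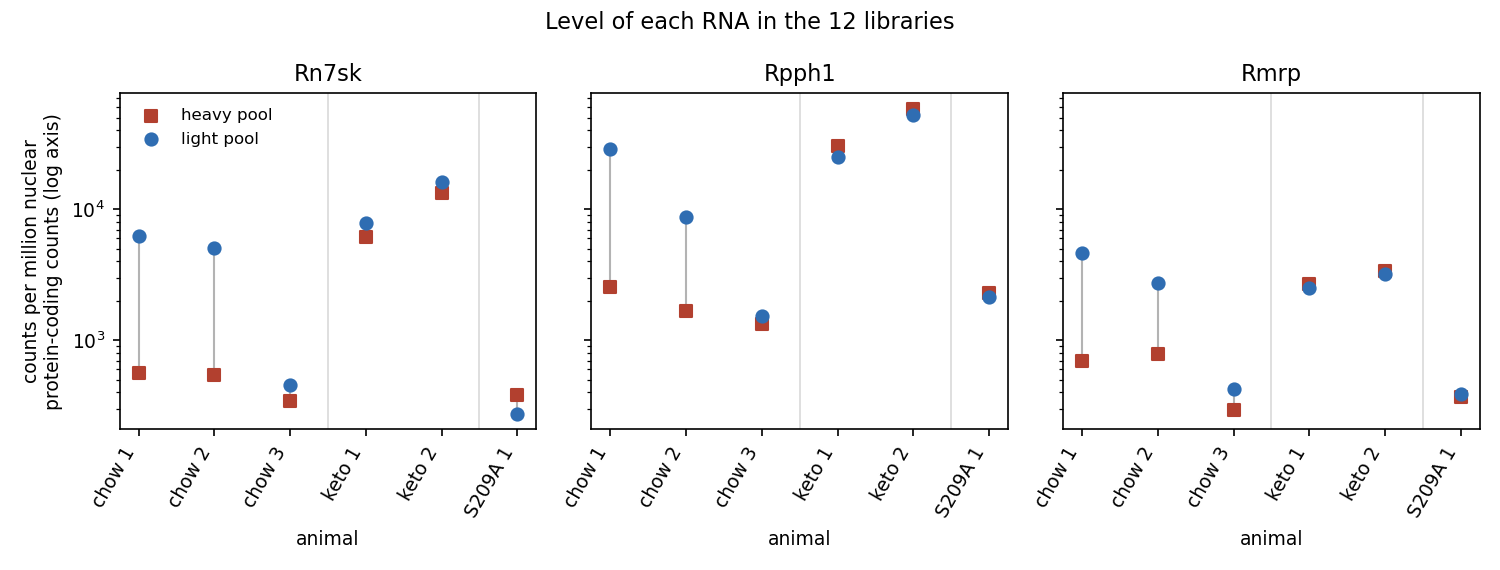
Counts per 1000000 nuclear protein-coding counts (log axis) of Rn7sk, Rpph1 and Rmrp in the heavy pool (squares) and light pool (circles) of each of the 6 animals, joined by a line. The light pools of chow 1 and chow 2 lie far above their heavy pools, while chow 3, S209A and the keto animals have both pools close together.

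The first comparison set the heavy against the light pool for each RNA, relative to the other RNAs of the library. Libraries were made from 10 ng of RNA each and 0 ERCC IDs are counted, so amounts per pool are not known. On the TMM scale, which equalises the bulk of the genes between libraries, the log2 ratio of heavy over light for Rn7sk was -2.86, -2.80 and -0.37 in chow 1, 2 and 3. In keto 1 and keto 2 it was -0.41 and -0.53, and in S209A 0.26. For Rpph1 the chow values were -2.90, -1.97 and -0.17, the keto values 0.22 and -0.08, and the S209A value -0.14. For Rmrp they were -2.15, -1.38 and -0.49 in chow, 0.06 and -0.16 in keto, and -0.32 in S209A. Relative to the bulk of the genes, all 3 RNAs thus stood much higher in the light than in the heavy pool of chow 1 and chow 2. They were nearer to parity in the other 4 animals on this scale.

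For Rn7sk the TMM ratio of chow 3 lay above those of both keto animals, so the diets overlapped on that scale. As shares of all counts (-0.81 in chow 3) and of protein-coding counts (-0.41) it lay below both. For Rpph1 and Rmrp all 3 chow values on the TMM scale lay below both keto values. Set against all genes of the same animal, 4.44% of genes had a lower ratio than Rn7sk in chow 1 and 2.89% in chow 2, but 29.5% in chow 3. The shares for Rpph1 were 3.86%, 9.13% and 40.2%, and for Rmrp 9.59%, 16.9% and 23.9%. In keto 1 and keto 2 they ran from 28.6% to 60.9% over the 3 RNAs, which places them among the middle of the genes there.

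The scale mattered, too, for the place of chow 3 among the chow animals. As a share of all counts, Rmrp was -0.93 in chow 3, between -1.47 in chow 1 and -0.36 in chow 2, and Rpph1 was -0.61, nearer to -0.95 in chow 2 than to 0.03 in keto 1. As shares of all counts, heavy over light in keto 2 was 0.27 for Rn7sk, 0.72 for Rpph1 and 0.64 for Rmrp, against -0.53, -0.08 and -0.16 on the TMM scale. As shares of protein-coding counts it was -0.28, 0.16 and 0.08. In chow all 3 RNAs were lower in the heavy pool of every animal on all 3 scales, with log2 values from -0.17 (Rpph1 in chow 3, TMM scale) to -3.50 (Rpph1 in chow 1, share of protein-coding counts).

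**Figure D2:**
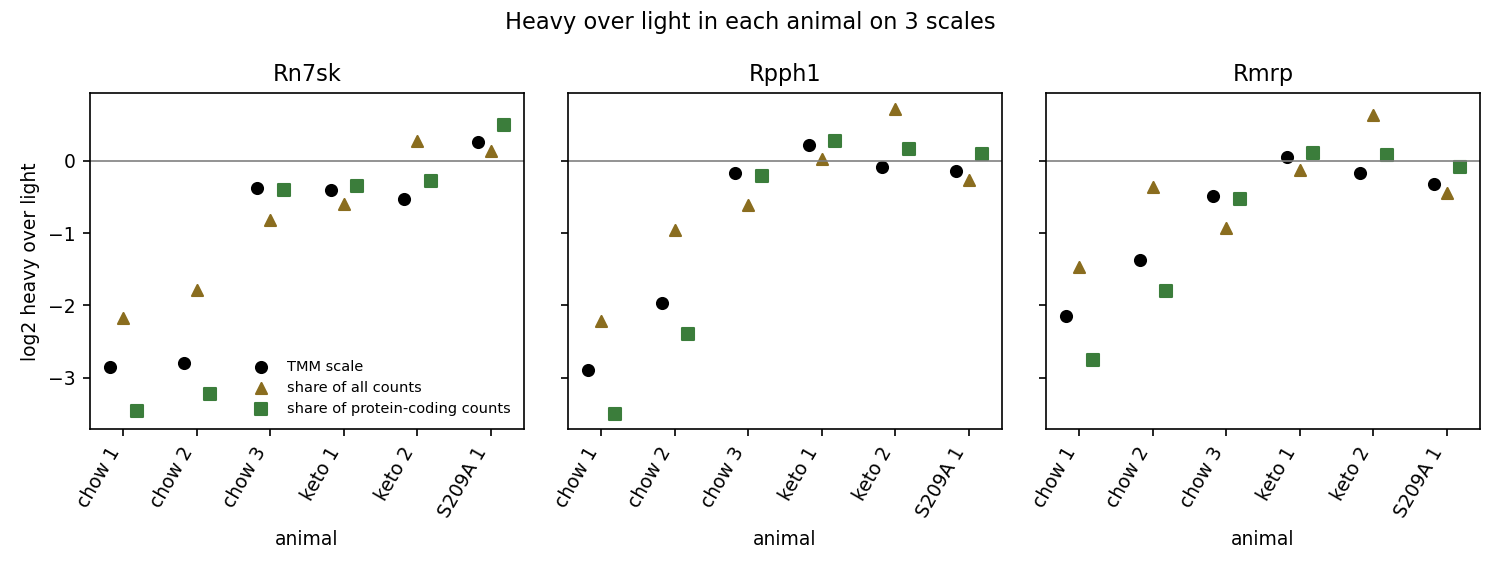
Log2 heavy over light of each RNA in each of the 6 animals on the TMM scale (circles), as a share of all counts (triangles) and as a share of protein-coding counts (squares); 0 means equal in both pools. All chow points lie below 0, with chow 1 the lowest animal for each RNA on each scale, and the keto and S209A points lie between -0.59 and 0.72.

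In an edgeR model of the 12 libraries that blocked on animal, heavy over light in chow was -2.05 ± 0.44 (log2 ± SE, 3 animals) for Rn7sk, -1.70 ± 0.49 for Rpph1 and -1.34 ± 0.38 for Rmrp. Without chow 3 the values were -2.85, -2.46 and -1.79, and without chow 1 they were -1.59, -1.07 and -0.93. In keto it was -0.47 ± 0.48 (2 animals), 0.07 ± 0.55 and -0.05 ± 0.45. These SEs and those below come from the whole model, not from the spread of the animals named alone. The SD between animals of the TMM ratio was 1.42, 1.39 and 0.83 in chow (n = 3). In keto (n = 2) that SD was 0.09, 0.21 and 0.16. The keto-minus-chow difference was 1.58 ± 0.65, 1.76 ± 0.73 and 1.29 ± 0.59. Over all 10555 genes, edgeR's quasi-likelihood test called 21 (0.199%) in heavy over light of chow, 19 (0.18%) in keto and 20 (0.189%) for the difference, at a Benjamini-Hochberg adjusted p under 0.05. Without chow 3 the first and the last count became 405 and 214. These shares are the background of the series, and nothing is read from them for the 3 RNAs. The mitochondrial rRNA share was 16.7% and 58.2% in the heavy and light pools of chow 1, 12.9% and 52.6% in chow 2, and 13.8% and 13.5% in chow 3. In keto it was 47.3% and 37.6%, then 74.2% and 51.8%, and in S209A 12.6% and 12.1%. That share was thus lower in the heavy pool, as the 3 RNAs were, in chow 1 and chow 2 only. Its part in the result was not tested.

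The second comparison set the diets against each other within a pool. In heavy pools Rn7sk was higher in keto by 3.85 ± 0.66 (log2 ± SE, 2 against 3 animals), Rpph1 by 4.11 ± 0.78 and Rmrp by 1.86 ± 0.60. For Rn7sk and Rpph1, 99.5% and 99.6% of all genes had a lower value, and for Rmrp 94.9%. In light pools the differences were 1.76 ± 0.97, 1.77 ± 1.13 and 0.27 ± 0.83. Leaving out chow 1 gave 2.13, 2.92 and 0.83 there, and leaving out keto 2 gave 1.14, 1.15 and 0.08. EdgeR called 0 of 10552 genes (0%) in heavy and 0 of 10551 (0%) in light pools, with 862 and 640 at an unadjusted p under 0.05, and DESeq2 called 111 and 0. With library totals in place of TMM the heavy differences shrank to 2.46, 2.74 and 0.51. The Rmrp light difference turned to -0.66 on that scale and to -0.22 without chow 3. Erythroid markers were also higher in the keto light pools, and their part was not tested.

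The keto comparisons within heavy and within light pools and the S209A comparisons use the same chow libraries. In heavy pools S209A minus chow was -0.47 ± 0.82 for Rn7sk, 0.17 ± 0.92 for Rpph1 and -0.85 ± 0.81 for Rmrp (1 against 3 animals, the single animal assumed to vary like the others). In light pools it was -3.24 ± 1.54, -1.96 ± 1.64 and -2.13 ± 1.21. The title wording, which sets chow 3 and S209A apart as the header does, was also used as a batch term. That term leaves S209A against chow 3 alone, and the light values became -0.32, 0.89 and 0.30. The low light level of S209A was thus shared by chow 3, the chow animal with the same header, which stood at 455, 1538 and 423 PC-CPM against 273, 2143 and 391.

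**Figure D3:**
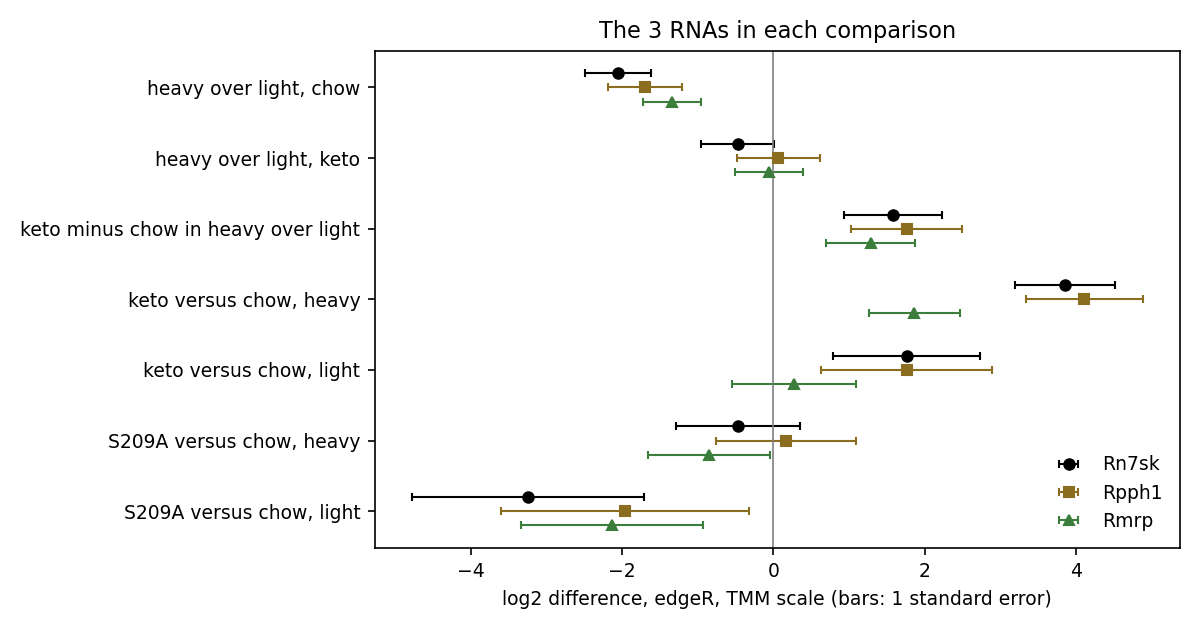
Log2 difference of Rn7sk, Rpph1 and Rmrp with 1 standard error (bars) from edgeR for each of the 7 comparisons. The keto-versus-chow differences in heavy pools, at 3.85, 4.11 and 1.86, are the furthest above 0, and those of S209A in light pools have the widest bars.

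Ratios between the RNAs within a library do not depend on how libraries are scaled. Per kilobase, Rpph1 was above Rmrp and above Rn7sk in all 12 libraries. Rpph1 over Rmrp was 3.13, 1.78 and 3.84 in the chow heavy pools and 5.26, 2.67 and 3.07 in the chow light pools. In keto 1 it was 9.58 and 8.59, heavy before light, and in keto 2 14.7 and 13.9, while S209A had 5.24 and 4.63. The keto libraries lay above all chow libraries in both pools. The means were 2.92 ± 1.05 (SD, n = 3) and 3.67 ± 1.39 in chow, against 12.1 ± 3.60 (SD, n = 2) and 11.2 ± 3.74 in keto.

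Rn7sk over Rmrp per kilobase was 0.673, 0.567 and 0.966 in chow heavy and 1.10, 1.52 and 0.890 in chow light pools. In keto it was 1.89 and 3.28 in heavy and 2.61 and 4.22 in light pools, again above all chow libraries, and S209A had 0.865 and 0.578. Rpph1 over Rn7sk overlapped between the diets, at 1.76 to 4.78 in chow and 3.29 to 5.07 in keto. S209A had 6.06 and 8.01, the highest values of the 12 libraries, from 1 animal. So the difference between the diets was larger for Rpph1 and Rn7sk than for Rmrp on any scale shared by the genes of a library.

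Between the pools of 1 animal, the log2 of heavy over light of the Rpph1-to-Rmrp ratio ran from -0.75 (chow 1) to 0.32 (chow 3). For Rpph1 to Rn7sk it ran from -0.40 (S209A) to 0.83 (chow 2), and for Rn7sk to Rmrp from -1.42 (chow 2) to 0.58 (S209A). The furthest from parity was Rn7sk to Rmrp in chow 2.

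**Figure D4:**
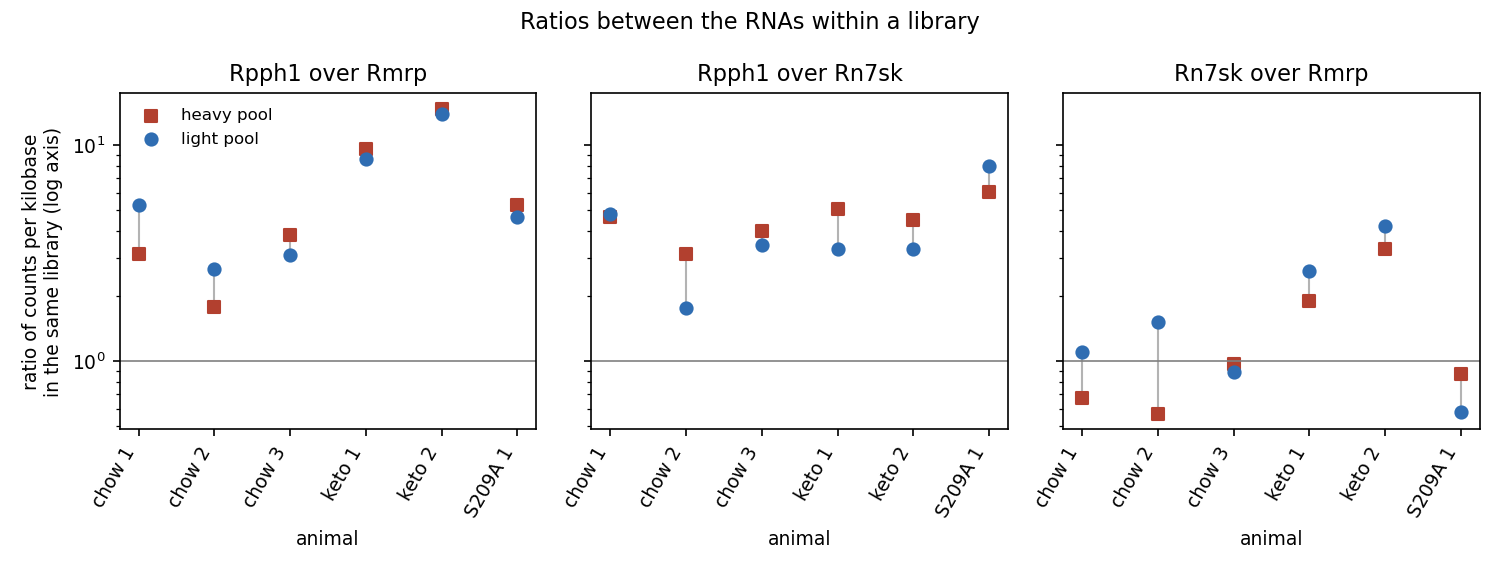
Ratio of counts per kilobase between each pair of the 3 RNAs within each library (log axis), heavy pools as squares and light pools as circles, by animal. Rpph1 over Rmrp and Rn7sk over Rmrp are higher in both keto animals than in any chow animal, and Rpph1 over Rn7sk overlaps between the diets.

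Rn7sk made up 0.00894% to 0.0179% of all counts in the 6 libraries with little mitochondrial rRNA and 0.0343% to 0.0801% in the 6 with much of it, with no overlap. Rpph1 made up 0.0367% to 0.0814% and 0.0711% to 0.351%, and Rmrp 0.00872% to 0.0175% and 0.0130% to 0.0304%. The latter 2 overlapped.

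**Figure D5:**
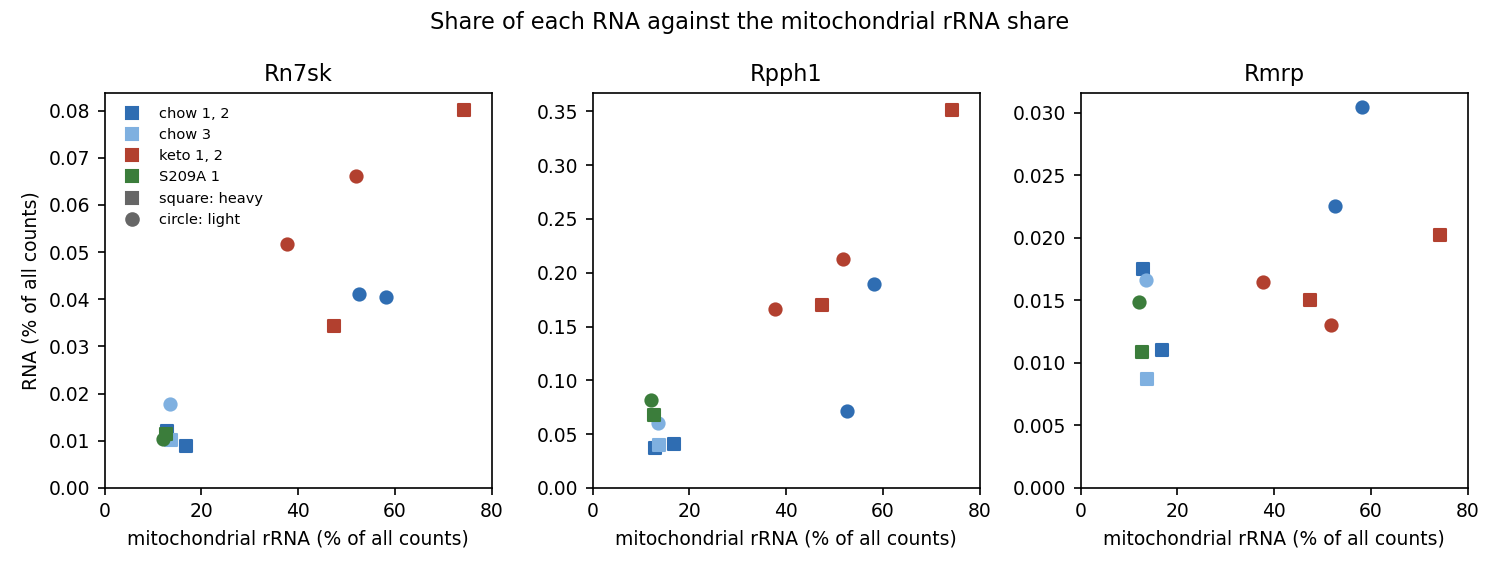
Share of all counts taken by each RNA against the share taken by mitochondrial rRNA, both in percent, with 1 point per library (squares heavy, circles light, colour by animal group). The libraries fall into 6 with 12.1% to 16.7% mitochondrial rRNA and 6 with 37.6% to 74.2%, and the Rn7sk shares of these sets do not overlap.

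The genes whose pattern was most like each RNA were taken from 2882 named genes with at least 50 counts on average, by Pearson's r of log2 TMM-scaled counts over the 12 libraries. They are a description with no test: the libraries share animals, and each r is taken across both sets of libraries just given. For Rn7sk the 5 were mt-Rnr1 (0.984) and mt-Rnr2 (0.977), the mitochondrial rRNAs, then Ghr (growth hormone receptor, 0.949), Dhdh (a dihydrodiol dehydrogenase, 0.949) and the vault RNA Vaultrc5 (0.948). For Rpph1 they were Cyb5r3 (a cytochrome b5 reductase, 0.981), Pigk (of the GPI transamidase, 0.966), mt-Rnr1 (0.960), Saa4 (0.952) and mt-Rnr2 (0.952). For Rmrp they were Arhgap35 (0.967), mt-Rnr1 (0.965), the U1 snRNA gene Rnu1a1 (0.963), mt-Rnr2 (0.959) and ND4L (0.940). ND4L had 0 or 1 count in the libraries of chow 3 and S209A and 35 to 152 in the others, a split that follows the file headers. Between the RNAs themselves r was 0.967 for Rn7sk and Rpph1, 0.946 for Rn7sk and Rmrp and 0.912 for Rpph1 and Rmrp. The scale mattered here too. With log2 shares of all counts, r with the mitochondrial rRNA share was 0.935 for Rn7sk, 0.839 for Rpph1 and 0.596 for Rmrp.

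The genes of the protein partners were measured as mRNAs. Of the 7 genes of the 7SK particle and P-TEFb, 6 were tested and 0 were called by edgeR in any of the 5 comparisons of chow and keto, where 0% to 0.199% of all genes were. Their median heavy over light in chow was 0.39, opposite in sign to Rn7sk, beside -0.10 over all genes. Cdk9, the P-TEFb kinase, had 1.13 ± 0.50 (adjusted p = 0.561), and Hexim1, which holds that kinase inactive, 0.75 ± 0.44 (adjusted p = 0.825). In heavy pools their keto-versus-chow median was -1.20, beside -0.04 over all genes, with Hexim1 at -1.38 ± 0.62 and Cdk9 at -1.19 ± 0.59 (adjusted p = 0.603 and 0.624).

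Of the 11 protein genes of RNase P and MRP, 7 were tested and 0 were called in any of these 5 comparisons, beside 0% to 0.199% of all genes. The counts were low, at most 38 in a library for Pop5 and for Rpp25l, and Rpp25 had none. The medians were -0.21 for heavy over light in chow and -0.33 for keto versus chow in heavy pools. Pop1, the largest subunit, had 0.41 ± 1.19 (adjusted p = 0.996) in the first and -0.71 ± 1.17 (adjusted p = 0.920) in the second. The mitochondrial RNase P is made of proteins alone. All 3 of its genes were tested, with medians of 0.78 and -0.41 and 0 calls.

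Of the genes of RNA polymerase III, 12 of 13 subunit genes and 13 of 13 factor genes were tested in the 5 comparisons. None was called, and over all genes the share called was 0% to 0.199%, so little can be read from the count. Subunit medians were -0.57 for heavy over light in chow and -0.33 for keto versus chow in heavy pools, and factor medians -0.22 and -0.46. Polr3a, the largest subunit, had -0.60 ± 0.65 (adjusted p = 0.971) and -0.53 ± 0.76 (adjusted p = 0.906). Ssb, the La protein that binds the 3′ ends of new polymerase III transcripts, had 0.97 ± 0.45 (adjusted p = 0.594) and -2.14 ± 0.58 (adjusted p = 0.476).

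Other small RNAs were set beside the 3. Of 31 further polymerase III RNAs, 27 were tested, mostly 5S rRNA copies that share reads and are uncertain. EdgeR called 0 of them in the 5 comparisons of chow and keto. Over all genes the share called was 0% to 0.199%, so little can be read from a count of 0. Vaultrc5 counts were 162 and 1003 in the heavy and light pools of chow 1, 509 and 1150 in chow 2, and 668 and 378 in chow 3. Of 138 small nuclear and nucleolar RNAs of RNA polymerase II and related genes, 45 were tested and, beside that same share, 0 called. Their median heavy over light was -0.70 in chow and 0.11 in keto. Rnu1a1, a U1 snRNA, had -1.45 ± 0.46 (adjusted p = 0.188) in chow. Its counts were 65 to 137 in chow 3 and S209A and 1395 to 17511 in the other 4 animals, a split that follows the file headers.

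Of 8 nuclear long noncoding RNAs 6 were tested, and edgeR called 1 in heavy over light of chow and in the keto-minus-chow difference, beside 0.199% and 0.189% of all genes. All 6 had a negative heavy over light in chow (median -0.70, beside -0.10 over all genes) and a positive one in keto. The median over all genes in keto was 0.03. Less the median of all genes, the list median was -1.71, -1.11 and -0.23 in chow 1, 2 and 3. It was 1.31 in keto 1, 0.60 in keto 2 and 0.47 in S209A. How many of all genes share this sign pattern was not counted, and the list was chosen with earlier results known. The signs are therefore a description only. Kcnq1ot1, an antisense RNA of an imprinted domain, fell by 2.25 on the log2 scale from light to heavy in chow (edgeR adjusted p = 0.0469). Its counts, heavy before light, were 4 and 105 in chow 1, 6 and 45 in chow 2, 59 and 73 in chow 3, 210 and 66 in keto 1, and 30 and 6 in keto 2. That call held in 2 of 10 alternatives and was lost without chow 1, chow 2, keto 1 or keto 2 in turn (log2 -1.43 without chow 1), with adjusted p from 9.9e-05 to 1. Its keto-minus-chow difference was 3.66 ± 0.87 (adjusted p = 0.0177), and this call too was lost without any 1 of these 4 animals. Its adjusted p over 10 alternatives ran from 3.6e-05 to 1. DESeq2 gave no adjusted p for Kcnq1ot1 in either comparison and is not among these alternatives. Without strand information its reads cannot be told apart from those of overlapping genes. Malat1, the most counted of them, had -0.60 ± 0.49 in chow (adjusted p = 0.921) and 1.05 ± 0.57 in keto (adjusted p = 1).

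The annotated neighbours had far fewer counts than the 3 RNAs. Within 10000 bases, Parp2 had 86 counts over all libraries (0 to 26 each) beside 127778 of Rpph1. Ccdc107 had 512 (19 to 92) beside 15182 of Rmrp, and Sit1, on the other side, had 0. Near Rn7sk, Cilk1 had 170 counts and the noncoding C920006O11Rik had 8, beside 33759. EdgeR called none of Parp2, Ccdc107 and Cilk1 in the comparisons of chow and keto. Over all genes the share called there was 0% to 0.199%, so little can be read from that. In keto versus chow of heavy pools they had -1.71, -0.61 and -0.30 (adjusted p = 0.861, 0.875 and 0.978), where the 3 RNAs had 4.11, 1.86 and 3.85. In heavy over light of chow they had 0.18, 0.11 and -1.13 (adjusted p = 0.997, 0.996 and 0.959).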

How the data were processed

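RNA from 12 libraries (6 livers, heavy and light pool) was analysed as raw counts per Entrez ID, used as deposited by the authors. Per the labels' protocols, ERCC RNA was added, and libraries were made from 10 ng with a stranded kit for total RNA (0 ERCC IDs are counted). The submitters' processing notes name HISAT2, StringTie, Trimmomatic and mm10. Per the file headers, aligners differed between animals. Versions, the counter and its handling of strand and of multiply placed reads were not given in the sources used here. Symbols came from RefSeq's GRCm38.p6 table (25275 IDs, 1904 unnamed, among them the most counted, 100861531, at 15.9% to 59.1% of a library). No column was left unused (0).

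EdgeR 4.0.16 (R 4.3.3) kept 10555 genes (filterByExpr, minimum count 10) and scaled by TMM (factors 0.325 to 3.12). Its quasi-likelihood test was two-sided, with Benjamini-Hochberg adjustment at 0.05. Heavy against light used 1 model with the animal as a block, and diets or genotype were compared within a pool over 6 libraries. Standard errors are the size of the log2 value divided by the root of F. Fits were tested on simulated data. DESeq2 1.42.0, other scalings and filters, blocks and left-out animals were alternatives. The members and lists were chosen with earlier results of these data known. Named genes are the 3 RNAs, their nearest neighbours within 10000 bases, list genes that passed and otherwise up to 4 per list with the most counts, and the 5 most like genes.

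Heavy and light libraries of 1 animal are paired by their labels. Their deviations from the chow means correlated across genes at 0.307, 0.305 and 0.463 in chow 1, 2 and 3. Samples of chow and keto that share a number share nothing else by the labels.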

Additional observations from a re-analysis of the deposited data

Results flagged for a closer look

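Kcnq1ot1 differed between the diets in heavy over light, by 3.66 on the log2 scale (keto minus chow, edgeR's interaction contrast, adjusted p = 0.0177). It was lower in the heavy pool of all 3 chow animals and higher in that of both keto animals. The call held in 3 of 10 alternatives. DESeq2 gave no adjusted p for this gene and is not among them.

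Rpph1 was lower in the heavy pool of all 3 chow animals and higher in that of both keto animals on 2 scales. The difference of the means (keto minus chow) was 1.63 as a share of all counts and 2.25 as a share of protein-coding counts. On the TMM scale keto 2 was at -0.08, so the animals did not all part in that way. Rmrp showed opposite signs as a share of protein-coding counts, with a difference of 1.79. These differences between the diets were not tested, since the 3 RNAs were chosen with these values known.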

How the results depend on the processing

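The count of genes called in heavy over light of chow (21) was 97 with DESeq2, 1 with library totals, 34 with protein-coding counts as library size, 11 with no filter and 0 with a mean of at least 50 counts. For keto (19) DESeq2 gave 0, library totals 1 and the stricter filter 0. For the keto-minus-chow difference (20) library totals and the stricter filter gave 0 each. Without the replicate block, which here is the animal, all 3 counts were 0. Keto versus chow in heavy pools (0) gave 111 with DESeq2, 384 with library totals, 6 with protein-coding counts, 112 with no filter and 126 with the title wording as a batch. The replicate number as a block gave 83 in heavy and 5 in light pools, and no filter gave 39 in light pools. Same-numbered chow and keto samples share only a number (correlations of deviations -0.07 and 0.05 in heavy, -0.05 and 0.0076 in light pools). Leaving out 1 animal in turn gave 5 to 405, 6 to 33, 0 to 214 and 0 to 67 calls in the first 4 comparisons.

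Of the values of the 3 RNAs under the alternatives, 239 of 258 moved by less than the spread between animals and 17 changed sign. That spread was wide in chow, with an SD of 1.42 for Rn7sk in heavy over light. Some alternatives also repeat each other, such as library totals and the share of all counts. The tally is therefore a description only. Heavy over light in keto with library totals or as a share of all counts was -0.16, 0.38 and 0.26 for Rn7sk, Rpph1 and Rmrp, and with protein-coding counts -0.32 for Rn7sk and 0.10 for Rmrp. Leaving out keto 1 gave -0.09 for Rpph1. Keto versus chow in heavy pools with library totals was 2.46, 2.74 and 0.51. In light pools Rmrp was -0.21 with the replicate block and -0.22 with the title wording, which leaves keto against chow 1 and chow 2. S209A versus chow in heavy pools with library totals was 0.13 for Rn7sk and 0.79 for Rpph1. With the title wording, which leaves S209A against chow 3 alone, it was 0.27, 0.87 and 0.43 in heavy and -0.32, 0.89 and 0.30 in light pools. With the replicate block Rpph1 was -0.03 in heavy pools. The causes were not tested. Each RNA had at least 347 counts in every library. The limits are 2 or 3 animals per diet, a single S209A animal, and file headers that differ with the groups.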

Other observations

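Among the marker lists, Hba-a2, an alpha globin gene of erythroid cells, was lower in the heavy than in the light pool of keto (log2 -2.71 ± 0.65, edgeR adjusted p = 0.0218, 2 animals). It was the only marker called in that comparison, where 19 of all 10555 genes (0.18%) were called. The 4 erythroid markers tested all had negative values there, with a median of -1.92. Hba-a2 and its near-identical copy can share reads, so the split between them is uncertain. The call held in 4 of 10 alternatives, with adjusted p from 0.0025 to 1. It was lost without keto 1 (adjusted p = 0.275) and without keto 2 (adjusted p = 1).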
